A study of Mus musculus with 7 samples.

Results

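MHC class I molecules carry short peptides from inside a cell to its surface, where CD8 T cells read them. The 10 genes described here build that route. H2-D1, H2-K1, H2-Q4 and H2-Q7 are heavy chains, and B2m is their shared light chain. Tap1 and Tap2 are the peptide transporter subunits, Tapbp (tapasin) is the loading chaperone and Psmb8 is an immunoproteasome subunit. Nlrc5 is a regulator that drives transcription of class I genes. The 10 were chosen by symbol, and each symbol matched 1 row, so all 10 of 10 members were found among the 32285 genes of the matrices.

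The measurements are single-nucleus RNA libraries from the subcortex, thalamus and hippocampus of 5xFAD mice, which carry familial Alzheimer's disease transgenes (5xFAD +/- in every mouse of both groups) and form amyloid plaques. Mice received an adeno-associated virus (AAV) into the retro-orbital sinus at 4 months of age and were sampled at 6 months. The groups were control AAV (n = 3: control 1, male; control 2, female; control 3, male) and ANGPT2 AAV (n = 4: ANGPT2 1, male; ANGPT2 2, female; ANGPT2 3, male; ANGPT2 4, female), where ANGPT2 is angiopoietin-2, a ligand of the endothelial receptor Tie2. Control 1 and 2 and ANGPT2 1 and 2 are labelled replicate 1 in the batch field, called batch 1 here, and the other three replicate 2, called batch 2. The promoter and capsid of the vectors are not given in the sources used here.

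In the brain most neurons hold little class I RNA, whereas endothelial cells and microglia hold more, and interferons raise the whole set. Tap1 and Psmb8 lie side by side in the MHC region, and a peptide can be loaded only when the heavy chain has B2m and the transporter delivers it. H2-Q4 and H2-Q7 are close paralogs of H2-D1 and H2-K1.

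The heavy chains sit on chromosome 17 of GRCm38 (GENCODE M21): H2-K1 at 33996017 to 34000347 on the minus strand, and H2-D1 at 35262730 to 35267499, H2-Q4 at 35379617 to 35385290 and H2-Q7 at 35439155 to 35443773 on the plus strand. Tapbp (33915899 to 33929292), Tap1 (34187553 to 34197225), Psmb8 (34197721 to 34201454) and Tap2 (34203527 to 34216321) lie on the same chromosome, all on the plus strand. B2m is on chromosome 2 (122147686 to 122153083) and Nlrc5 on chromosome 8 (94434356 to 94527272), both on the plus strand. All 10 are protein-coding genes.

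The promoter sequences below (RefSeq, GRCm38.p6) are shown so that the heavy chains can be set beside B2m, their light chain. RefSeq promoter windows were found for 8 of the members (none for Nlrc5 and Tap2). Capitals mark the NF-kB type motif GGGNNTTCC, the interferon response core GAAANNGAA and the CCAAT box, which are CCAAT or ATTGG, searched on both strands. H2-K1, H2-Q4, H2-Q7 and B2m are shown from 200 to 11 bases before the start site, and H2-D1 for 30 bases around its motif, since GENCODE annotates the wider window as untranslated exon.
H2-K1, 17:34000358-34000547, minus: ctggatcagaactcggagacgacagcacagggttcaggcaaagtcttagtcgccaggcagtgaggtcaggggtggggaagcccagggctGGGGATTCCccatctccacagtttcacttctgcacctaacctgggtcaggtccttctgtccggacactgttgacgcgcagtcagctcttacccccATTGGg
H2-Q4, 17:35379417-35379606, plus: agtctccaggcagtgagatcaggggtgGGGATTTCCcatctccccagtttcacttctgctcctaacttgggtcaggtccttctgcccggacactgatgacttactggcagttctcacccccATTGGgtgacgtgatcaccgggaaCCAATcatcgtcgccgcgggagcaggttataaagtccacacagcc
H2-Q7, 17:35438955-35439144, plus: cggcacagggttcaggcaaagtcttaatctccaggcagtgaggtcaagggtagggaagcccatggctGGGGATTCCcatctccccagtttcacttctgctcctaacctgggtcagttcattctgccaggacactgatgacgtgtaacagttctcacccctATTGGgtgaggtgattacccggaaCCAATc
B2m, 2:122147487-122147676, plus: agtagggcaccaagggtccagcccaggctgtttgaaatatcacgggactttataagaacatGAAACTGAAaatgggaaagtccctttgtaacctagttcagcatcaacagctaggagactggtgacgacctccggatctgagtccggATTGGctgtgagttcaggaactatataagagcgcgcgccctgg
H2-D1, 17:35262912-35262941, plus: agcccagggctGGGGATTCCccatctcctc
The motif GGGNNTTCC was found in the 250 bases before the start of all 4 heavy-chain members, while 4.98% of all 32851 promoter windows of that length held it. GAAANNGAA was found in B2m, at 139 to 131 bases before the start, and 7.13% of all windows held it. The 4 heavy-chain windows hold tttcacttc, in which GAA and GAAA stand in the other order on the opposite strand. The search did not cover that order, so it does not show whether the heavy chains lack an interferon element. The CCAAT box was found in 33.8% of windows and TTCNNNGAA, a gamma-activated site, in 7.02%. Psmb8 held the last at 97 to 89 bases before its start. These matches are letters only and were not tested for binding.

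Raw UMI counts were used as deposited. Nuclei were clustered without the member genes, named from marker genes, and summed per library and type, which left 13 named types. A level is given as CPM, the gene's UMIs per 1000000 UMIs of that type in that library. CPM values of different genes are not compared, since gene length differs. The libraries hold 25466033 to 100529717 UMIs, and those of batch 2 (25466033 to 32526932) are shallower than those of batch 1 (65676959 to 100529717). Control 2 stands apart: its excitatory neurons had 317 CPM of Bdnf against 22.9 to 43.2 in the other libraries, and 46.8 CPM of Fos against 3.77 to 7.36. The results in microglia, oligodendrocytes, their precursors and whole libraries are therefore given also without it. Control 2 is the only female control. Without it the controls are all male while the ANGPT2 group holds both sexes, so treatment and sex are partly mixed. Batch 1 then keeps control 1 as its only control. Angpt2 transcripts of the mouse gene were not higher in ANGPT2 libraries (2.3 to 4.72 CPM over whole libraries) than in controls (3.77 to 4.28), so expression from the vector is not seen in these counts. Reads of a transgene that the mouse reference does not hold would be missing from the matrices. Libraries shared 63 to 134 barcodes per pair.

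Across nucleus types, class I genes were highest in endothelial nuclei and next highest in microglia. H2-D1 averaged 308 CPM in endothelial nuclei (SD 125, n = 7 libraries) and 95.6 in microglia (SD 46.0), and endothelial nuclei lay above microglia in 7 of 7 libraries. H2-K1 averaged 284 CPM in endothelial nuclei (SD 105) and 103 in microglia (SD 55.3), again higher in 7 of 7. B2m averaged 398 CPM in endothelial nuclei (SD 294) and 135 in microglia (SD 29.1), higher in 7 of 7. Psmb8 averaged 46.2 CPM in endothelial nuclei and 13.8 in microglia, higher in 7 of 7. H2-Q4 (69.4 and 36.3 CPM) was higher in endothelial nuclei in 5 of 7, H2-Q7 (30.3 and 10.5) in 6 of 7, and Tap1 (20.9 and 17.9) in 4 of 7, so these neighbours overlap.

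The order differed for the other three members. Nlrc5 was highest in microglia, at 70.5 CPM (SD 50.6), against 31.9 in endothelial nuclei (SD 33.6), and microglia were above endothelial nuclei in 6 of 7 libraries. Tap2 averaged 44.6 CPM in endothelial nuclei, 39.5 in choroid plexus and 34.7 in microglia, with endothelial nuclei above choroid plexus in 4 of 6 libraries and choroid plexus above microglia in 4 of 6. Tapbp averaged 64.5 CPM in endothelial nuclei, 43.1 in fibroblasts and 35.3 in microglia, with each above the next in 4 of 7. These are rankings of types that the clustering did not use the members to build, with few nuclei in some types (47 to 142 endothelial nuclei a library).

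The remaining types sat lower. H2-D1 averaged 57.8 CPM in fibroblasts, 36.6 in mural nuclei, 29.9 in ependymal nuclei, 25.1 in oligodendrocyte precursors, 22 in oligodendrocytes, 15.1 in astrocytes, 8.56 in excitatory and 7.58 in inhibitory neurons. B2m averaged 29.2 CPM in oligodendrocytes, 19.2 in astrocytes and 7.31 in excitatory neurons. Neurons make up most of the UMIs, so excitatory neurons still held 1670 of the 4552 H2-D1 UMIs (36.7%), against 525 (11.5%) in microglia and 284 (6.24%) in endothelial nuclei. For Nlrc5 the shares were 9.31% in excitatory neurons and 38.0% (351 of 924 UMIs) in microglia. H2-Q4 had 43.7% of its 490 UMIs in microglia.

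**Figure D1:**
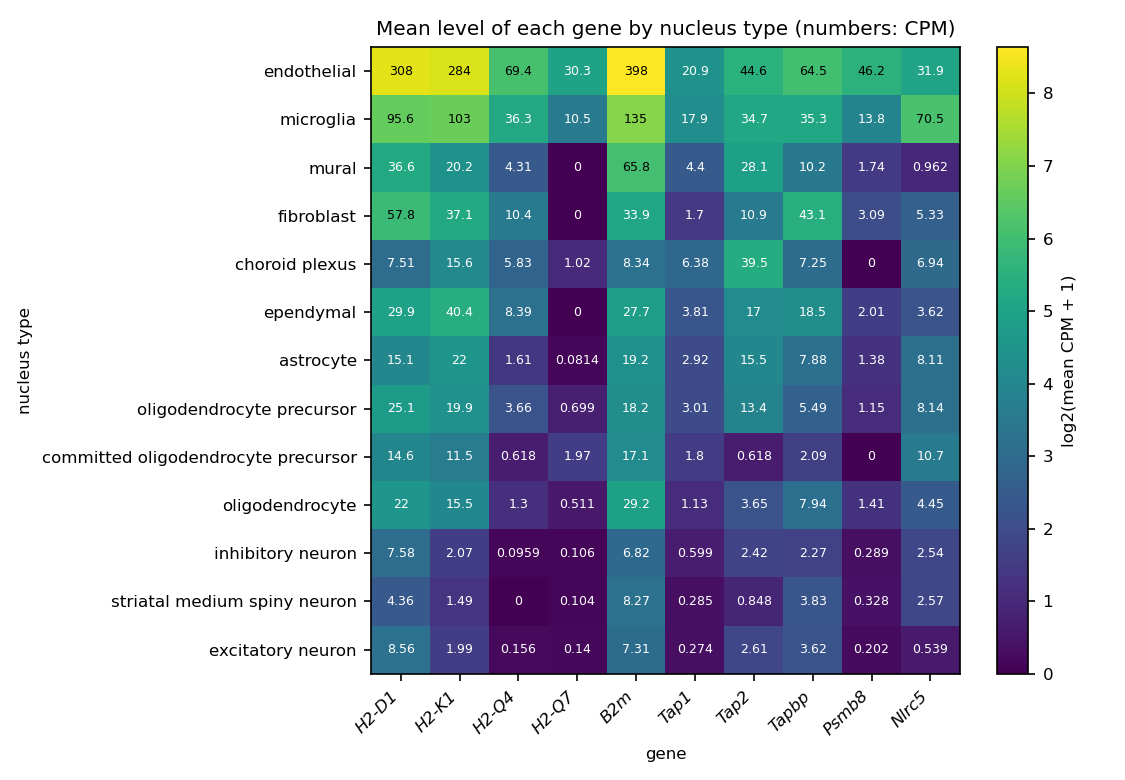
Mean level of each member (columns) in each nucleus type (rows) over the libraries; colour is log2(mean CPM + 1) and the printed numbers are mean CPM. Endothelial nuclei hold the highest mean for 9 of the 10 members, and microglia for Nlrc5.

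The pattern of H2-D1 over the 13 types was most like that of Mob1a (Pearson r 0.958), Rpl5 (0.950), Tmsb4x (0.947) and Rps6 (0.946), among genes with at least 500 UMIs. For Nlrc5 the closest were Cep68 (0.904), Ganab (0.886), Eloa (0.881), Ormdl1 (0.880) and Parp2 (0.880). Among the members, the pattern of H2-D1 correlated with that of B2m at 0.961 and of H2-K1 at 0.925, over 13 types that share libraries.

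In microglia, every member tested was lower with ANGPT2 AAV. After filtering, 9070 genes were tested with edgeR's quasi-likelihood test, 8 of the 10 members among them; H2-Q7 and Psmb8 had too few UMIs. A member could pass the filter through the controls alone. The median log2 change of the 8 was -0.96, against 0.00 for all tested genes. None passed an adjusted p of 0.05, and 0 (0%) of all 9070 genes did; DESeq2 called 0 too, and 339 genes (3.74%) had an unadjusted p under 0.05. Of the 8 members 5 were lower at an unadjusted p under 0.05, beside 2.26% of all genes.

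H2-D1, a classical heavy chain, had 136.2, 182.3 and 83.9 CPM in control 1, 2 and 3 and 59.7, 68.9, 69.4 and 68.9 in ANGPT2 1 to 4. Every ANGPT2 library lay below every control. Its log2 change was -1.02 (SE 0.235, adjusted p = 0.766). H2-Q4, its paralog, had 53.1, 92.5 and 30.3 CPM in the controls and 21.7, 25.5, 21.9 and 8.84 after ANGPT2 AAV, again without overlap. The fitted log2 change was -1.63 (SE 0.367, adjusted p = 0.766). The ANGPT2 libraries lay below every control for 3 of the 8 tested members (H2-D1, H2-Q4 and Tap1), beside 3.25% of all tested genes. H2-Q7, which failed the filter, showed the same with 16.4, 30.5 and 11.7 CPM against 5.43, 3.83, 0 and 5.30.

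H2-K1, the other classical heavy chain, had 138.1, 212.8 and 74.6 CPM with control AAV and 70.6, 81.7, 51.1 and 95.4 with ANGPT2 AAV. Control 3 falls among the ANGPT2 values, so the groups overlap. The log2 change was -0.90 (SE 0.283, adjusted p = 0.999). B2m had 144.8, 193.0 and 118.8 CPM against 104.9, 125.0, 116.9 and 141.4, which overlap, and its log2 change was -0.30 (SE 0.197, adjusted p = 0.999).

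Nlrc5 had 54.1, 131.1 and 151.4 CPM in controls and 27.1, 28.1, 36.5 and 65.4 in ANGPT2 libraries. Only ANGPT2 4 lay above a control (control 1). Its log2 change was -1.44 (SE 0.362, adjusted p = 0.999). Tap1 had 20.3, 22.5 and 41.9 CPM against 7.24, 15.3, 7.30 and 10.6, with no overlap and a log2 change of -1.21 (SE 0.394, adjusted p = 0.999). Tap2 (log2 change -0.28, SE 0.267) and Tapbp (-0.35, SE 0.240) had unadjusted p of 0.315 and 0.167. Psmb8, with 3 to 22 UMIs per library, had 9.32 to 21.2 CPM in controls and 9.05 to 19.4 in ANGPT2 libraries. The calls depended on the processing in these cases: with no filter on low counts 62 genes passed, among them 5 members (Nlrc5, H2-D1, H2-K1, H2-Q4 and H2-Q7, adjusted p 1.11e-05 to 0.00631), and with batch as replicate block and sex in the fit 5 genes passed, among them Nlrc5 (-1.84, adjusted p = 0.00697).

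**Figure D2:**
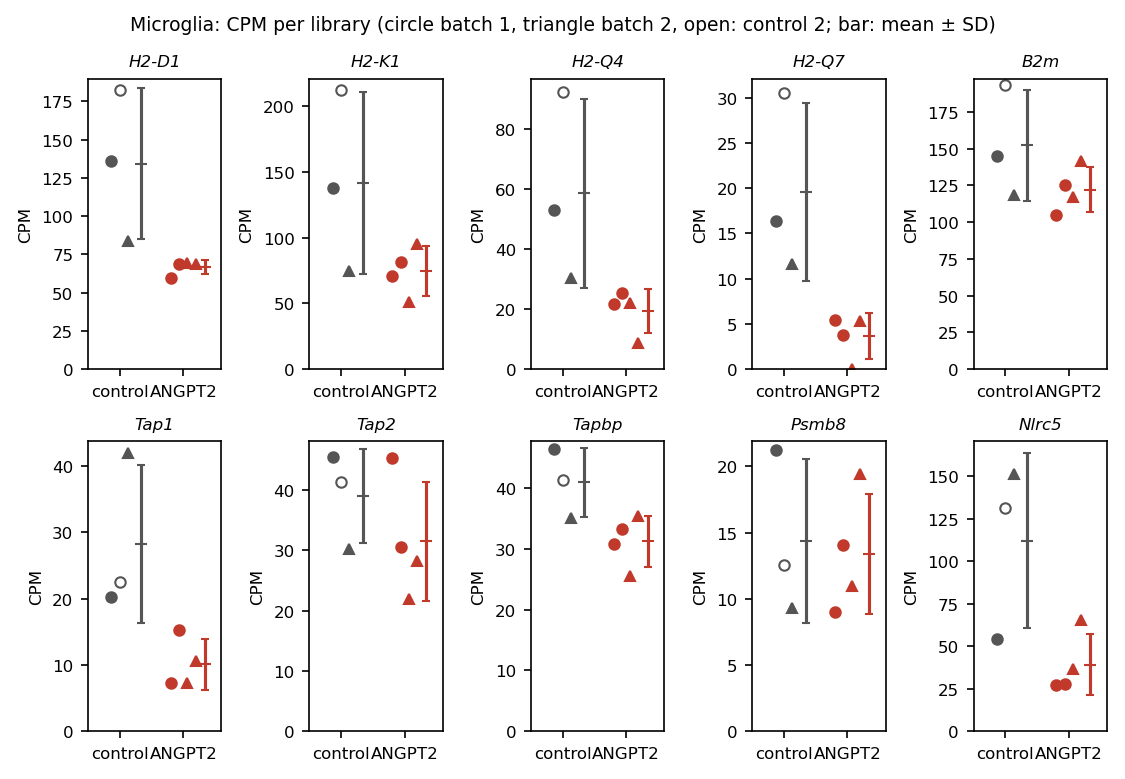
CPM of the 10 members in microglia for each library: grey controls, red ANGPT2, circles batch 1, triangles batch 2, the open circle control 2, and bars the mean with SD. For H2-D1, H2-Q4, H2-Q7 and Tap1 the ANGPT2 points lie below all control points.

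Control 2 was highest of the 7 libraries in H2-D1, H2-K1, H2-Q4, H2-Q7 and B2m. Without it the median log2 change of the 9 members then tested was -0.47, and no member passed. H2-D1 was then -0.71 (unadjusted p = 0.00636), H2-Q4 -1.11, Nlrc5 -1.22, Tap1 -1.33, H2-K1 -0.47 and B2m -0.07. With the labelled batch as a replicate block and without control 2 the median was -0.45. Within batch 1, where 2 controls meet 2 ANGPT2 libraries, the difference in mean log2 CPM was -1.27 for H2-D1, -1.15 for H2-K1 and -1.55 for Nlrc5. Within batch 2, 1 control meets 2 ANGPT2 libraries, and the difference was -0.26 for H2-D1, -0.08 for H2-K1 and -1.57 for Nlrc5. By edgeR's interaction term, the treatment effect in batch 2 minus batch 1 was 1.11 for H2-D1 (SE 0.426, unadjusted p = 0.0211, adjusted p = 0.759). For H2-K1 it was 1.36 (SE 0.522, unadjusted p = 0.0214, adjusted p = 0.759). The batch 2 side rests on 1 control.

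Some nuclei in the microglia clusters carried lymphocyte markers, and they held high levels of the same genes. Nuclei with UMIs of at least 3 of 24 lymphocyte markers numbered 17 of 372 in control 1 and 19 of 442 in control 2. There were 0 of 243 in ANGPT2 1, 5 of 316 in ANGPT2 2, and 0 in the batch 2 libraries. The 0 in batch 2 does not show that lymphocytes were absent, since a shallow nucleus is less likely to show 3 markers. At least 1000 UMIs were held by 104 of 500 nuclei in control 3, 181 of 228 in ANGPT2 3 and 167 of 591 in ANGPT2 4. The cluster with most batch 2 microglia scored 3.58 for lymphocyte markers and 2.9 for microglia markers (mean z-score over clusters). Nuclei with at least 3 lymphocyte markers averaged 2.96% of the microglia clusters with control AAV (SD 2.56, n = 3) and 0.396% with ANGPT2 AAV (SD 0.791, n = 4). The exact two-sided permutation test gave p = 0.257. They had 797 CPM of H2-D1 and 519 of H2-Q7, against 136 and 18.4 in the microglia of the same libraries, so they were left out of the microglia values above. The UMI totals over all kept nuclei and the whole libraries include them. With them kept the median log2 change of the 8 members was -1.06. The summed CPM of the lymphocyte markers left in microglia was 45.4, 35.9 and 60.6 in controls and 23.5, 30.6, 32.9 and 37.1 in ANGPT2 libraries, and its part in the result was not tested. When nuclei with even 1 such marker were left out, the median of the 8 was -0.98.

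Shares of nuclei were compared after each nucleus was thinned to 1000 UMIs, which left out as too shallow 396 nuclei of control 3, 47 of ANGPT2 3, 424 of ANGPT2 4 and 2 to 5 of each batch 1 library. H2-D1 was then seen in 15.3%, 16% and 9.62% of microglia in controls 1 to 3 and in 5.44%, 6.86%, 5.52% and 5.99% in ANGPT2 1 to 4, which average 13.6% (SD 3.49, n = 3) against 5.95% (SD 0.652, n = 4). The exact two-sided permutation p was 0.0286, the smallest the 35 splits allow, and 0.222 after adjustment over the 70 shares tested. H2-K1 (14.8% against 5.72%) and H2-Q4 (6.17% against 1.88%) gave the same p. This separation was seen at 1000 UMIs only. Thinned to 500 UMIs, which keeps the shallow nuclei, the means were 7.10% and 3.67% for H2-D1 (exact permutation p = 0.114), 6.69% and 3.96% for H2-K1 (p = 0.143) and 2.50% and 1.11% for H2-Q4 (p = 0.0857). With no thinning the p-values of the same exact test were 0.143, 0.286 and 0.143. Nlrc5 was seen in 11.6% and 4.28% of nuclei (p = 0.0571, exact permutation). As background, excitatory neurons, which should hold little, showed H2-D1 in 1.22% of controls and 0.640% of ANGPT2 nuclei. Nuclei were also split by disease-associated microglia markers, a list picked after the data were seen. H2-D1 was found in 14.7%, 15.7% and 14.1% of pooled control nuclei with 0, 1 and at least 2 markers. In pooled ANGPT2 nuclei it was found in 4.56%, 6.12% and 8.37%. Pooled nuclei are not replicates, and most pooled control nuclei came from batch 1. By library, the shares were 3.26%, 7.45% and 5.66% in ANGPT2 1 and 6.09%, 5.65% and 10.4% in ANGPT2 2. They were 5.21%, 6.38% and 5.26% in ANGPT2 3 and 2.08%, 4.84% and 10.5% in ANGPT2 4. Shares rose at each step in control 3 and ANGPT2 4 only.

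**Figure D3:**
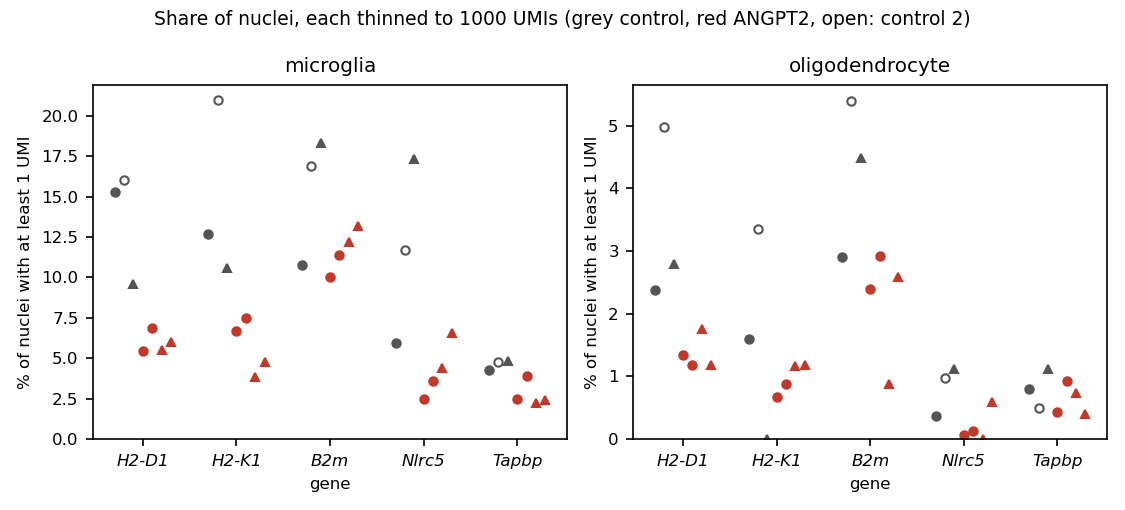
Percent of nuclei with at least 1 UMI of 5 members, each nucleus thinned to 1000 UMIs, for microglia (left) and oligodendrocytes (right): grey controls, red ANGPT2, circles batch 1, triangles batch 2, the open circle control 2. In microglia all 4 ANGPT2 points lie under the 3 control points for H2-D1 and H2-K1.

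In oligodendrocytes 5 of the 6 members tested were lower. With edgeR, 12380 genes were tested and 0 (0%) passed, with 306 at an unadjusted p under 0.05 and 0 called by DESeq2; the members' median log2 change was -0.97 against -0.01 for all genes. Of the 6, 4 were lower at an unadjusted p under 0.05, beside 1.54% of all genes. H2-D1 had 28.3, 48.2 and 20.0 CPM in controls and 11.8, 12.6, 15.3 and 17.8 in ANGPT2 libraries. It did not overlap between groups and was 1 of the 6 tested to do so, beside 3.26% of all genes. Its log2 change was -1.22 (SE 0.304, adjusted p = 0.998).

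H2-K1 had 15.1, 37.5 and 14.3 CPM in controls and 5.91, 8.97, 11.4 and 15.1 in ANGPT2 libraries, which overlap (log2 change -1.22, SE 0.41, adjusted p = 0.998). B2m had 27.1, 55.7 and 34.2 CPM against 22.8, 28.9, 10.5 and 25.4 (-0.72, SE 0.298). Nlrc5, with 1 to 46 UMIs per library, had 3.92, 15.0 and 4.99 CPM against 0.805, 1.35, 0.954 and 4.12 (-2.32, SE 0.649). Tapbp was -0.21 (SE 0.322) and Tap2 0.04 (SE 0.513). Tap1, H2-Q4, H2-Q7 and Psmb8 had too few UMIs to be tested. With no filter on low counts 30 genes passed, among them H2-D1, H2-K1, Nlrc5 and H2-Q4 (adjusted p 0.00101 to 0.012).

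**Figure D4:**
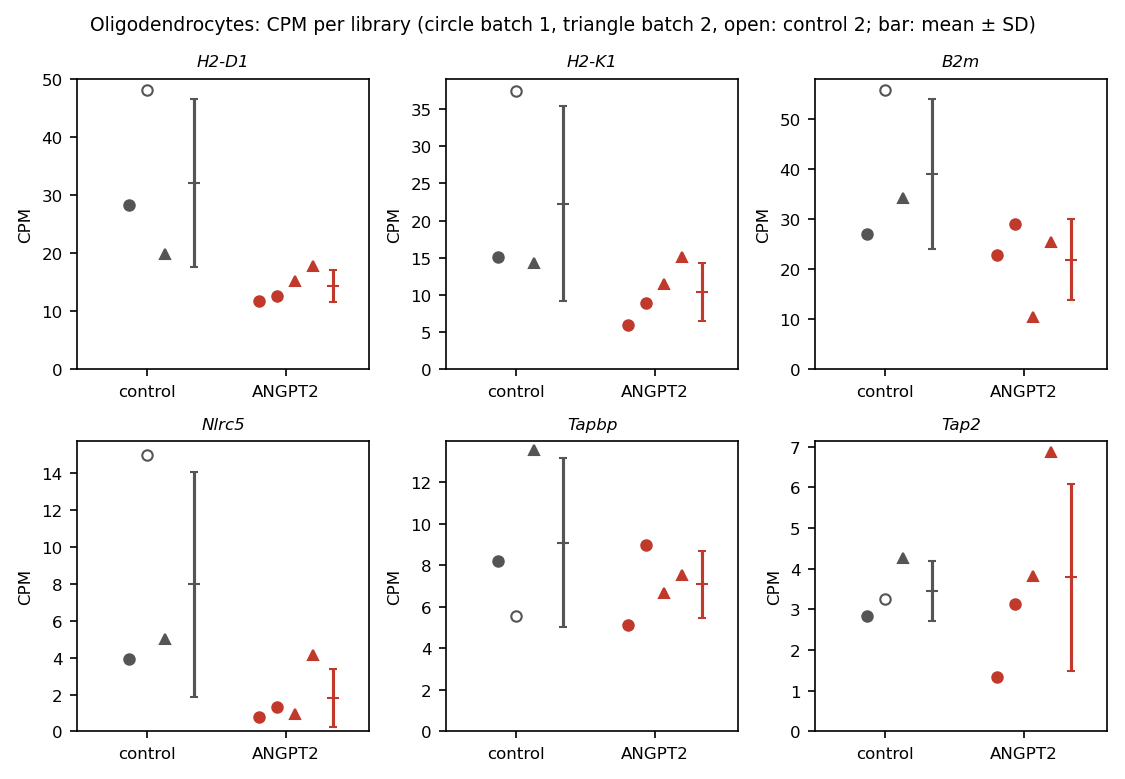
CPM of 6 members in oligodendrocytes for each library, drawn as for microglia. Control 2 is the highest point for H2-D1, H2-K1, B2m and Nlrc5.

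Without control 2 the oligodendrocyte median was -0.49, H2-D1 was -0.79 and H2-K1 -0.57, and Tapbp was -0.41. Within batch 1 H2-D1 differed by -1.58 and within batch 2 by -0.25. By edgeR's interaction term, batch 2 minus batch 1 was 1.585 for H2-D1 (SE 0.543, unadjusted p = 0.0151, adjusted p = 0.63). For H2-K1 it was 1.897 (SE 0.813, unadjusted p = 0.0414, adjusted p = 0.633). At a finer clustering the class held 170 in place of 1229 nuclei of control 2, 4 members were tested and their median was -0.63. The gap in change between microglia and oligodendrocytes was not larger than the spread over libraries for any of the 6 members tested in both (H2-D1 0.146, exact permutation p = 0.371; Nlrc5 0.425, p = 0.371; adjusted p = 0.8 for all). Against astrocytes the gap for H2-D1 was 0.270 (exact permutation p = 0.543).

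Other types gave fewer members. In oligodendrocyte precursors, H2-K1 had 31.7, 47.0 and 17.8 CPM in controls and 12.3, 6.87, 11.3 and 12.2 in ANGPT2 libraries, with no overlap. Its log2 change was -1.68 (SE 0.387), the smallest unadjusted p (0.000201) of 8147 genes, yet adjusted p = 0.779. Counts behind it were 3 to 34 UMIs per library. Of the 4 members tested there 2 were lower at an unadjusted p under 0.05, beside 2.59% of genes; 0 (0%) passed. Without control 2 H2-K1 was -1.33. With no filter on low counts it passed (adjusted p = 0.0197), as 1 of 16 genes. In astrocytes H2-D1 was -1.24 (SE 0.490), the only one of 4 tested at an unadjusted p under 0.05, beside 1.82% of genes (0% passed). Without control 2 none of 5 tested was, H2-D1 was -0.45 and the median moved from -0.51 to -0.21. Without ANGPT2 1 none of 4 was.

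In excitatory neurons H2-D1 had 11.3, 12.1 and 8.91 CPM in controls and 7.23, 8.57, 7.33 and 4.54 after ANGPT2 AAV, with no overlap. The fitted change was -0.56 (SE 0.206). H2-K1 was -0.85 and B2m -0.59, and 3 of the 7 members tested were lower at an unadjusted p under 0.05, beside 2% of genes (0% passed). Without control 2 none of 6 was, with H2-D1 at -0.42, H2-K1 at -0.42 and B2m at -0.35, and at the finer clustering 1 of 7 was. Inhibitory neurons had 1 of 6 (H2-D1, -0.89, SE 0.319), beside 2.05% (0% passed), and without control 2 it was -0.47 (unadjusted p = 0.179). Endothelial nuclei had 0 of 5, beside 1.11% (0% passed), with H2-D1 at 394 ± 108 CPM after control AAV (SD, n = 3) and 244 ± 102 after ANGPT2 AAV (SD, n = 4). The fitted change was -0.67 for H2-D1 (SE 0.337) and -0.62 for H2-K1. Without ANGPT2 4 the endothelial median moved from -0.44 to -0.93, with H2-D1 at -1.01, H2-K1 at -0.86 and B2m at -1.16. This was the strongest of the alternatives for these members. Over 18 alternative fits H2-D1 ranged from -1.01 to -0.443, H2-K1 from -0.857 to -0.375 and B2m from -1.16 to 0.334. Striatal medium spiny neurons had 0 of 3, beside 1.25% (0% passed).

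**Figure D5:**
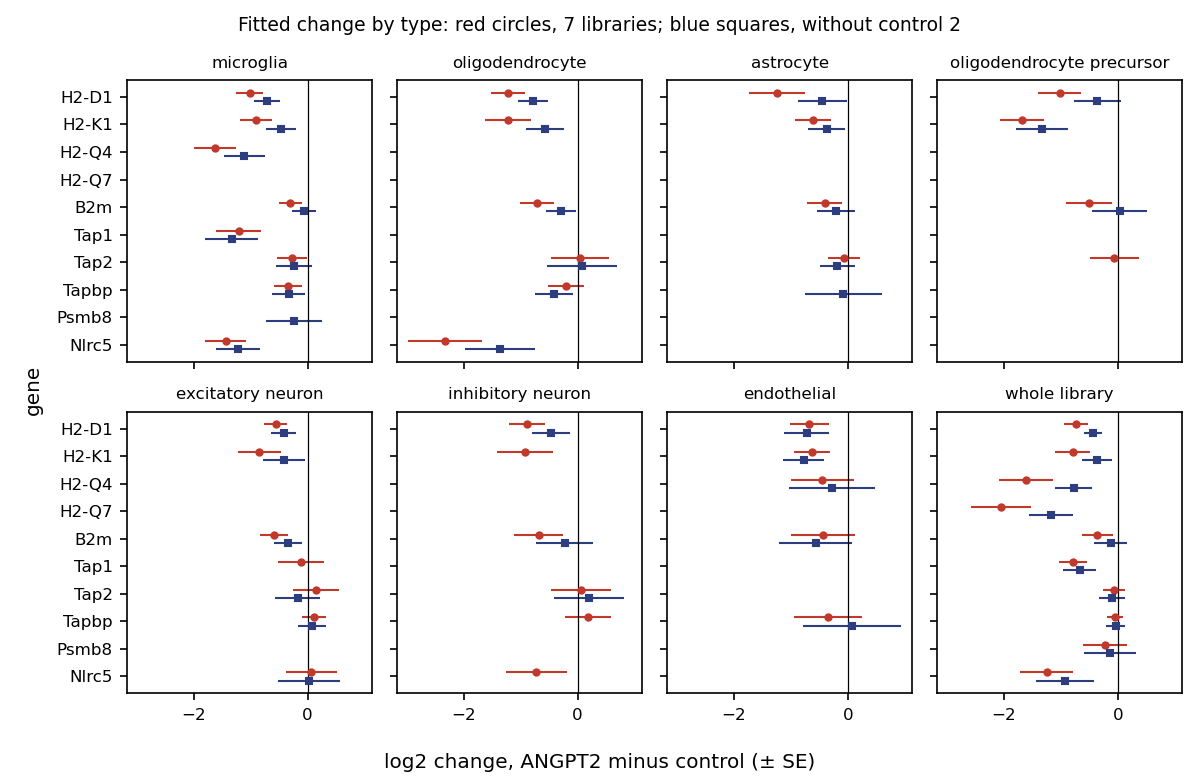
Log2 change of each member, ANGPT2 minus control, in 7 nucleus types and whole libraries (bars are SE): red circles for 7 libraries and blue squares without control 2. Most points lie left of 0, and the blue ones lie nearer to it for H2-D1 in 7 of the 8 panels.

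Over whole libraries all 10 members were tested and all 10 were lower, with a median of -0.76 against -0.02 for 19856 genes. Of these 10, 6 had an unadjusted p under 0.05, beside 1.57% of genes, and 0 (0%) passed the adjusted threshold. In 5 (H2-D1, H2-K1, H2-Q4, H2-Q7 and Tap1) every ANGPT2 library lay below every control, beside 3.01% of genes. H2-Q7, with 6 to 112 UMIs per library, had 0.615, 1.76 and 0.518 CPM against 0.135, 0.299, 0.247 and 0.266 (log2 change -2.05, SE 0.530). Of its 219 UMIs, 43 came from the 41 nuclei with lymphocyte markers, 36 of which were in controls 1 and 2. The part of these nuclei in the whole-library difference was not tested. Without control 2 the median of the 10 was -0.40 and H2-Q7 was -1.17. In such sums, fewer cells of a type and less RNA per cell cannot be told apart. The ratio of H2-D1 to H2-K1 UMIs in microglia overlapped between groups (0.857 to 1.12 in controls and 0.722 to 1.36 in ANGPT2 libraries).

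The genes around the members were counted in lists chosen with earlier results known. A listed gene could pass the filter through the controls alone. Of all genes tested in microglia 49.8% were lower, and the counts below are description only. In microglia the 5 other class I heavy chains tested were all lower (median -0.54), including H2-T22 (-0.79), H2-T23 (-0.54) and H2-M3 (-0.62). Of 9 tested genes of the immunoproteasome and its activator 7 were lower, with a median of only -0.14. That list also holds subunits of the standard proteasome, such as Psmb5, Psmb6 and Psmb7. Psmb9, the partner subunit of Psmb8, was -1.29 (SE 0.430). Of 32 interferon-induced genes listed 17 were tested, and all 17 were lower (median -0.81), among them Xaf1 (-0.98). Of the 14 receptors and factors 11 were lower (median -0.17). Of the 5 genes tested from the class II presentation list 4 were higher, while Cd74, the invariant chain, was -1.19 (SE 0.301). Without control 2 the 5 tested were Cd74, Ctss, H2-DMa, H2-DMb1 and Lgmn. The microglia count did not hold elsewhere. Over whole libraries 8 of the 9 tested from that list were lower (median -0.24, against -0.02 for all genes). All 3 tested in oligodendrocytes and all 2 in astrocytes were lower too. In microglia other loading factors (median -0.01) and the enhanceosome genes (0.01), which assemble with Nlrc5, had medians near that of all genes. None of these genes passed an adjusted p of 0.05. Without control 2 all 17 interferon-induced genes tested were still lower (median -0.74), as were the 6 other heavy chains then tested (-0.42), of which none had an unadjusted p under 0.05. Psmb9 was then -0.96, Xaf1 -0.90 and Cd74 -1.29.

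In oligodendrocytes 0 genes passed an adjusted p of 0.05, and 1.54% of all genes were lower at an unadjusted p under 0.05. Of 6 genes tested that mark disease-associated oligodendrocytes 5 were lower and 1 higher (median -0.30). Of these 6, C4b (-1.30) and Serpina3n (-1.69) were lower at an unadjusted p under 0.05. Ifi27 (-0.51) was lower at that p too. Without control 2 C4b was -0.50 and Ifi27 -0.39, both above that p, and Serpina3n turned to 0.08. At the finer clustering a cluster of 941 nuclei, most of them from control 2, had C4b among its leading genes. The 8 interferon-induced genes tested had a median of -0.36 and the 6 other loading genes -0.23. The heavy chains share sequence with other genes. Of the 31-base words in the last 500 bases of coding transcripts, 53.8% of those of H2-Q4, 27.2% of H2-D1, 24.4% of H2-K1 and 21.0% of H2-Q7 occur in another gene, against 0% for B2m, Nlrc5, Tap2 and Psmb8. The gene sharing most of these words was another class I gene for H2-D1 (H2-K1), H2-K1 (H2-D1) and H2-Q7 (H2-Q5), and Gm43321 for H2-Q4. How reads were split between such genes is therefore uncertain. The labels give neither strain nor H2 haplotype, and reads of a haplotype other than that of the reference could be assigned differently among H2-D1, H2-K1 and the H2-Q genes, which touches every heavy-chain value above.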

How the data were processed

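Nuclear RNA of 7 brain libraries was analysed from the raw UMI counts that the authors deposited, one matrix per library. Per the submitters' processing notes they were made with Cell Ranger 6.1.2 on mm10 (GRCm38), and whether intronic reads were counted is not given in the sources used here. The counts are not normalized. Labels name samples, not animals, so p-values measure the spread between libraries.

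Nuclei with at least 300 genes and under 5% mitochondrial UMIs passed (58169), 3939 called doublets were removed, and 54230 were kept. Clusters (Leiden, leidenalg 0.10.2, resolution 1, 40 components, 15 neighbours, 2500 variable genes without the members and other list genes) were named from marker lists. Names rest on these rebuilt clusters, and 11.8% to 32.3% of a library's kept nuclei stayed unnamed and enter whole libraries only. The microglia of each batch form their own cluster.

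UMIs were summed per library and type and tested with edgeR 4.0.16 (quasi-likelihood, TMM, minimum count 10, minimum total 15), treatment only; p-values were adjusted by Benjamini-Hochberg over all genes of a type. Counts were also simulated at the fitted dispersions, with no batch, sex or control 2 effect, so recovery in the real data may differ. In microglia (8773 genes) the test recovered 51 of 95 genes changed 2-fold and 89 of 91 changed 4-fold, with 7 false calls. In oligodendrocytes it recovered 70 of 100 and 94 of 97, with 11 false calls. In endothelial nuclei it recovered 13 of 90 and 73 of 79, with 1 false call. Libraries with under 10 nuclei of a type were left out of it. Alternatives were batch as replicate block, sex, DESeq2 1.42.0, other scaling, no filter, doublets kept, finer clusters, lymphocyte and border macrophage cut-offs, and leaving out each library. The labels mark a shared batch, which pairs the libraries. Deviations of same-batch libraries correlated at 0.02 to 0.25 in oligodendrocytes, at -0.05 to 0.19 in microglia and at 0.035 to 0.56 in whole libraries. Those of libraries from different batches correlated at -0.24 to 0.053, -0.16 to 0.15 and -0.5 to 0.14. The main fit ignores this pairing, which is strongest in whole libraries, so their unadjusted p-values are to be read with that limit.

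All members with values in microglia, oligodendrocytes and any type where they pass the filter are named, and from other lists up to 4 genes with the smallest p. Members and lists were chosen with earlier results of these data known. Two-sided exact permutation tests used the 35 assignments of 3 control labels to 7 libraries. CPM pattern likeness used log2(CPM + 1). Proteins were not analysed here. Some genes that the naming rule picks are not reported here.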

Additional observations from a re-analysis of the deposited data

Results flagged for a closer look

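In 5 of 53 groups of 4 ANGPT2 libraries examined, 1 library lay far from the other three by Dixon's test; chance alone picks about 1 in 20 such groups. In endothelial nuclei ANGPT2 4 had 738 CPM of B2m. In microglia ANGPT2 4 had 8.84 CPM of H2-Q4, the lowest of the 7 libraries. In oligodendrocyte precursors ANGPT2 2 had 6.87 CPM of H2-K1. Over whole libraries ANGPT2 2 had 10.9 CPM of H2-D1, the highest of its group, and ANGPT2 1 had 0.135 CPM of H2-Q7. The causes were not tested.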

How the results depend on the processing

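The fitted direction of H2-D1, H2-K1, H2-Q4, Nlrc5 and Tap1 in microglia, and of H2-D1, H2-K1, B2m and Nlrc5 in oligodendrocytes, was the same under every alternative fit in which they were tested; the share of oligodendrocytes with H2-K1, given below, turned without control 2. Genes passing an adjusted p of 0.05 (0 as reported) depended on the fit. With no filter on low counts they numbered 62 in microglia, 30 in oligodendrocytes, 48 in astrocytes, 4 in endothelial nuclei, 87 in inhibitory neurons, 16 in oligodendrocyte precursors and 35 in medium spiny neurons. With the replicate block and sex they numbered 5 in microglia, 2 in astrocytes, 1 in oligodendrocytes and 4 in precursors. With sex they numbered 1 in microglia and 1 in precursors. In batch 1 alone they numbered 1 in endothelial nuclei, 1 in oligodendrocytes and 6 in precursors. DESeq2 gave 1 in medium spiny neurons and 1 in whole libraries. With the replicate block and without control 2, added after the data were seen, precursors had 2. The replicate block alone called no gene in microglia or oligodendrocytes (0 each).

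Leaving out each library in turn, the members' median ranged from -1.06 to -0.468 in microglia, -1.35 to -0.492 in oligodendrocytes, -0.871 to -0.401 in whole libraries, -0.379 to -0.122 in excitatory and -1.12 to -0.228 in inhibitory neurons, and the weakest values in microglia, oligodendrocytes, whole libraries and inhibitory neurons were those without control 2. It ranged from -0.626 to -0.206 in astrocytes, highest without control 2, and from -0.934 to -0.306 in endothelial nuclei, lowest without ANGPT2 4. Called genes ranged from 0 to 2 in precursors and from 0 to 5 in medium spiny neurons. With the block and without control 2 the median was -0.449 in microglia, -0.494 in oligodendrocytes, -0.404 in whole libraries and -0.123 in inhibitory neurons. In excitatory neurons it was -0.419 with no filter and -0.389 with doublets kept, and in inhibitory neurons -0.0337 with no filter and -0.435 in batch 1 alone.

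Signs turned for members with small changes. Leaving out libraries, Tap2 ranged from -0.182 to 0.0474 in astrocytes (also 0.0458), -0.19 to 0.361 in excitatory neurons (also -0.172), -0.238 to 0.369 in inhibitory neurons, -0.354 to 0.145 in oligodendrocytes (also -0.00839) and -0.146 to 0.0535 in whole libraries (also 0.0323). Tapbp ranged from -0.814 to 0.0763 in endothelial nuclei, -0.0091 to 0.293 in excitatory neurons, -0.414 to 0.0427 in oligodendrocytes, -0.237 to 0.198 in medium spiny neurons (also 0.0242, 0.154 and 0.0269) and -0.0725 to 0.00183 in whole libraries. B2m ranged from -1.16 to 0.334 in endothelial nuclei and -0.866 to 0.0367 in precursors, Nlrc5 from -0.296 to 0.302 (also -0.185) and Tap1 from -0.122 to 0.0316 in excitatory neurons, and H2-D1 from -1.65 to 0.0251 in medium spiny neurons.

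In excitatory neurons Nlrc5 was -0.0842 with the replicate block, -0.121 with block and sex, -0.0239 scaled by total UMIs, -0.389 with doublets kept and -0.0868 in batch 1 alone. There Tap2 was -0.022 with the block, -0.198 in batch 1 alone and -0.27 with the block and without control 2, Tapbp -0.000198 and Tap1 0.146 in batch 1 alone. In inhibitory neurons Tapbp was -0.244 with doublets kept, and Tap2 -0.00568 with sex and -0.222 in batch 1 alone. In oligodendrocytes Tap2 was -0.107 with the block, -0.122 with sex, -0.363 with both and -0.409 in batch 1 alone. In precursors Tap2 was 0.0252 with DESeq2 and B2m 0.034 with the block and without control 2. In medium spiny neurons Tapbp was 0.0541 with the block, 0.0131 with sex and 0.0368 with both, and H2-D1 0.18 with the block and without control 2. Tapbp in endothelial nuclei was 0.274 with the block and without control 2. The difference in the share of microglia with Tap2 was -0.325 percentage points thinned to 500 UMIs and -2.5 with no thinning, that with Psmb8 0.338 thinned to 500, and that of oligodendrocytes with H2-K1 0.182 without control 2. The causes were not tested. Low UMI counts limit H2-Q7, Psmb8 and Tap1 in most types.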
